A study of Mus musculus with 3 samples.

Results

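ATP-binding cassette (ABC) transporter genes of subfamilies A, B, C, D and G were examined in 3 snap-frozen mammary tumours grown from NDL(UCD), a mouse line that models ErbB2-driven breast cancer. The members were all gene symbols made of Abca, Abcb, Abcc, Abcd or Abcg and a number, with or without a final a or b. There were 46 of them among 21881 symbols, each with a single row of status OK in every tumour. Cultured cells of the line had been placed in the mammary fat pads of FVB/NJ females at an age of 6 to 8 weeks. The tumours, each from a different mouse, were taken once 5 to 10 mm wide. All tumours carry the same line, which is known to hold an activated Erbb2 transgene under a mammary tumour virus promoter. The host mice are immune-competent and of the same strain as the line, so each sample also holds mouse stroma and immune cells. There is a single group with no normal gland or other tumour beside it. Levels are in FPKM, which counts sequenced fragments per length of transcript and per size of library. A level with ± is the mean and SD of the tumours (n = 3). In such bulk samples, fewer cells of a type and less RNA per cell cannot be told apart.

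ABC transporters are membrane proteins that use ATP, bound at paired nucleotide-binding domains, to move lipids, metal complexes, peptides, conjugated metabolites or drugs across a membrane. Subfamily A moves mainly lipids, B holds drug pumps and mitochondrial proteins, C holds organic anion pumps and the receptors of ATP-sensitive potassium channels, D works in peroxisomes and lysosomes, and G holds sterol exporters and a multidrug pump. In mammary gland Abcg2 is known to be induced in lactation and to move riboflavin and drugs into milk. In tumours the pumps Abcb1a, Abcb1b, Abcc1 and Abcg2 are studied for resistance to chemotherapy.

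Tumours 1, 2 and 3 were covered by 11.7, 12.4 and 13.4 M fragments (M, 1e6), as computed from the deposited intervals. At the median locus 3 fragments, which a count of 0 allows, came to 0.0436, 0.0456 and 0.0409 FPKM. The intervals and these limits cover counting error only. The epithelial markers Epcam, Krt8, Krt18 and Cdh1 were all above 1 FPKM, with a summed level of 702, 1058 and 990.1 FPKM in tumours 1, 2 and 3, and 986, 963 and 769 FPKM with GC and transcript length trends removed, so the order of the sums turned. Tumour-to-tumour differences across the series followed base composition. Over genes that averaged 1 FPKM or more, the median gene under 42% GC had a log2 ratio of tumour 3 to tumour 1 of -1.29, and the median gene over 54% GC one of 0.79. Values with the GC and transcript length trends of each tumour removed are therefore given beside deposited ones for the main comparisons of tumours, and an order given from deposited values alone may depend on these trends.

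Most ABC genes of these subfamilies were low. The highest were Abcd3, a peroxisomal importer of acyl-CoAs, at 21.8 ± 8.90 FPKM, and Abca3, a phospholipid transporter known from the lamellar bodies of lung, at 21.4 ± 7.80 FPKM. Next came the multidrug pump Abcg2 at 12.01 ± 2.90 FPKM and the cholesterol exporter Abca1 at 9.68 ± 2.65 FPKM. Tested by limma against a level of 1 FPKM, a conventional mark, 14 members were above it and 23 below with a Benjamini-Hochberg adjusted p under 0.05. A further 6 were not separated from that level and 3 were listed at 0 in every tumour. Over all 18028 symbols listed above 0, the shares were 54.2% above and 32.5% below, against 32.6% and 53.5% of the 43 members listed above 0. The median member listed above 0 had a mean of 0.563 FPKM, while the median of all such symbols was 2.44 FPKM. With GC and length trends removed 14 members were above and 22 below, against 55.5% and 33.1% of all symbols. When each tumour was scaled to sum to 1000000 FPKM, the median gene moved up by 1.54 log2 units, and 21 members were above and 15 below, against 64.9% and 23.2% of all symbols. With that scaling Abca17, Abcb1b, Abcb9, Abcc10 and Abcg3, called below on the deposited scale, had mean levels over 1.

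**Figure D1:**
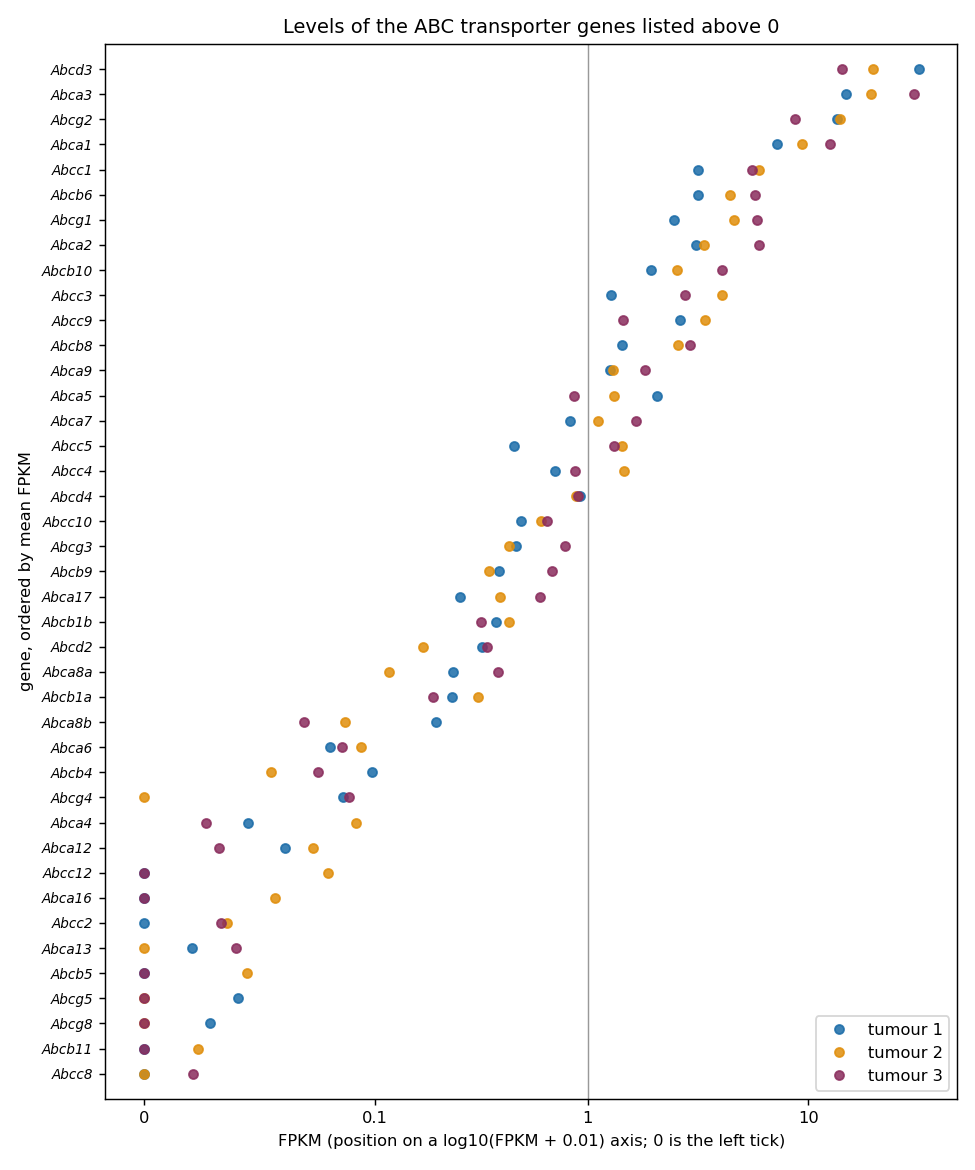
Each row is 1 of 41 members listed above 0 in at least 1 tumour, ordered by mean FPKM, and each point is a tumour; the position is log10(FPKM + 0.01), the vertical line marks 1 FPKM and points at 0 overlap on the left. The levels run over several orders of magnitude, from 31.6 FPKM for Abcd3 in tumour 1 to single fragments of Abcc8, Abcb11, Abcg8 and Abcg5, and the spread between tumours is small beside the spread between genes.

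The summed level of the members was 106 FPKM in tumour 1, 109 FPKM in tumour 2 and 117 FPKM in tumour 3. Abcd3, Abca3 and Abcg2 together held 56.5%, 48.2% and 45.2% of it in tumours 1, 2 and 3. The sums were close, but the roles behind them were not. The peroxisomal and lysosomal genes held 33.0% of the total in tumour 1 and 16.5% in tumour 3. The A-class genes outside sterol export held 20.8% in tumour 1 and 34.0% in tumour 3. With trends removed these shares were 31.9% and 18.2%, and 25.6% and 30.0%, in tumours 1 and 3. The shares follow Abcd3, with 44.5% GC in its longest transcript, and Abca3, with 54.8% GC.

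**Figure D2:**
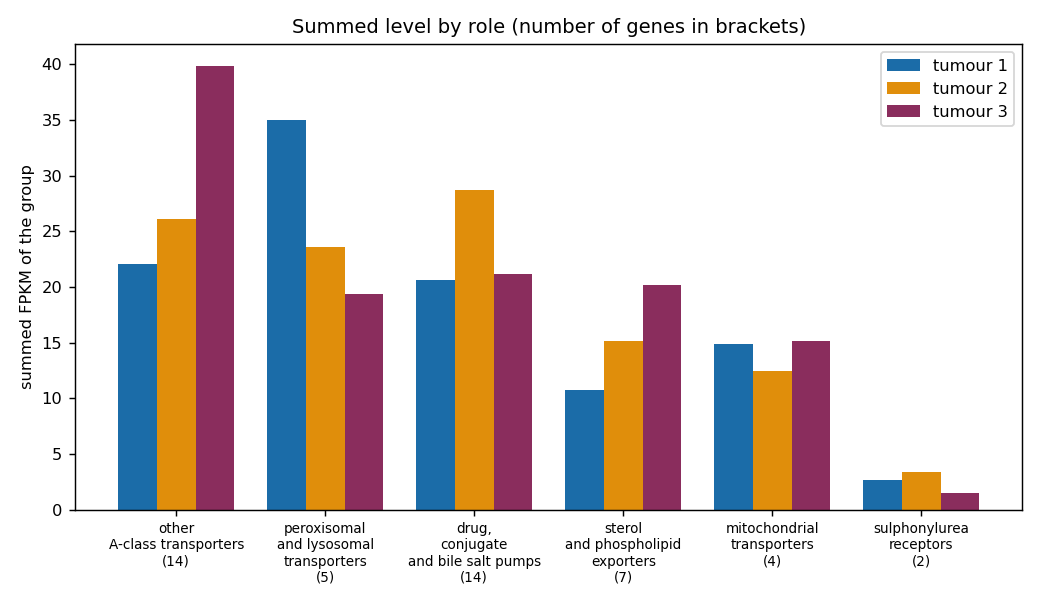
Bars are the summed FPKM of the genes of each role in tumours 1, 2 and 3, with the number of genes in brackets. The peroxisomal and lysosomal sum is highest in tumour 1 at 35.0 FPKM, the other A-class sum in tumour 3 at 39.8 FPKM and the pump sum in tumour 2 at 28.7 FPKM, while the mitochondrial sum stays between 12.4 and 15.1 FPKM. All bars are deposited values, and with trends removed the first 3 of these sums are 31.7, 35.0 and 29.8 FPKM in the same tumours.

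Among sterol and phospholipid exporters, Abca1 and Abcg1 were above 1 FPKM, Abca7 was not separated from it and 4 of the 7 genes were below. Abca1, which loads cholesterol and phospholipid onto apolipoprotein A-I (mm9 chromosome 4, 53043661 to 53172767), had 7.21, 9.34 and 12.5 FPKM in tumours 1, 2 and 3, resting on 2135, 2662 and 3962 fragments (limma adjusted p = 3.1e-06 against 1 FPKM). Abcg1, which exports cholesterol to high-density lipoprotein, had 2.48, 4.63 and 5.87 FPKM (mm9 chromosome 17, 31194639 to 31254926). Both genes were lowest in tumour 1 and highest in tumour 3. With GC and length trends removed the order stayed, at 6.89, 9.60 and 12.9 FPKM for Abca1 and 3.05, 4.37 and 5.09 FPKM for Abcg1. The macrophage markers Lyz2, C1qa, C1qb, Csf1r, Cd68 and Emr1, all above 1 FPKM, had summed levels in the same order, 237, 432 and 892 FPKM as deposited and 299, 397 and 781 FPKM with trends removed. Macrophages are known to express both exporters, and the part of these cells in the levels was not tested.

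Abca7, a phospholipid transporter of phagocytes and brain, had 0.829, 1.12 and 1.65 FPKM in tumours 1, 2 and 3, on either side of 1 FPKM, and 1.06, 1.06 and 1.37 FPKM with trends removed. Abcb4, which moves phosphatidylcholine into bile, was at 0.0583 ± 0.0351 FPKM. Abcg4, a brain relative of Abcg1, had 0.0695 and 0.0741 FPKM in tumours 1 and 3 and was listed at 0 in tumour 2. Abcg5 and Abcg8, whose products pair to export plant sterols in liver and gut, each rested on 1 fragment in tumour 1 and were listed at 0 in the others.

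The promoter of Abca1 is shown because the gene is a classic target of the liver X receptors (LXR), which sense oxysterols through a repeat element near its start. The sequence is the 150 bases before the RefSeq start on GRCm38.p6, chr4:53159896-53160045, minus strand. Capitals mark the motifs searched on both strands, the GC box GGGCGG, the TATA motif TATAAA, the E-box CACGTG and a fixed string. The string is TGACC and GTAACC with any 4 bases between them. It was searched for the LXR repeat, but its parts and its 4 free bases are not the units and spacer of that repeat. CCAAT was also searched.
Abca1: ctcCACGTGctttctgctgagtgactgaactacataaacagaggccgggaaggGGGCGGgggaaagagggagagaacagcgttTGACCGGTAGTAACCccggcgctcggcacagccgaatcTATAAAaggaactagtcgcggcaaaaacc
The window held the first 4 of these once each and without overlap, beginning at positions -97, -29, -147 and -67 from the start. Over 250 bases before each start, 35.4% of 27025 symbols held GGGCGG, 14.3% held TATAAA, 6.86% held CACGTG and 37.5% held CCAAT. The fixed string was held by 9 symbols in all, 0.0333%. A motif at any start of a gene was counted. Among 34 members in that table only Abca1 held the fixed string. The search was made because of the known element of Abca1, so the match there is no independent result. These counts describe this string and not LXR repeats in general, and cannot say which other genes hold such a repeat. A match of letters is a description and no evidence of binding.

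In the list of sterol regulators and acceptors, 11 of 14 genes were above 1 FPKM and 2 below. Over all symbols listed above 0 the shares were 54.2% and 32.5%. Apoe, a lipid acceptor made by macrophages and other cells, led at 688 ± 335 FPKM, followed by the lipogenic regulator Srebf1 at 43.4 ± 12.3 FPKM. Nr1h2, the widely expressed LXR gene, was at 10.1 ± 1.98 FPKM, and Nr1h3, the LXR gene of macrophages and liver, had 0.723, 0.972 and 2.17 FPKM in tumours 1, 2 and 3, not separated from 1 FPKM. Apoa1, the plasma acceptor made in liver and gut, was at 0.171 ± 0.157 FPKM. The lowest was Lcat, a plasma enzyme from liver, with 0.0547 FPKM in tumour 3 and listed at 0 in the others.

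Of the other 14 A-class genes, Abca3 and Abca2 were above 1 FPKM, Abca5 and Abca9 were not separated from it, 8 were below, and Abca14 and Abca15 were listed at 0 throughout. Abca3 (mm9 chromosome 17, 24488991 to 24547146) had 14.9, 19.3 and 30.0 FPKM in tumours 1, 2 and 3. These rested on 2684, 3358 and 5832 fragments. With trends removed the values were 18.7, 18.3 and 25.2 FPKM, so tumour 3 was the highest in both forms and the lowest tumour changed. Abca2, a lysosomal lipid transporter known from myelinating cells, had 3.09, 3.38 and 5.99 FPKM, and 3.87, 3.30 and 4.94 FPKM with trends removed. Abca17, the neighbour of Abca3 on mm9 chromosome 17, was at 0.419 ± 0.173 FPKM, and 2.75% of its 50-base words also occur in Abca3, so that some of its fragments could be shared.

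Abca3 is known from the lung, where its product loads phospholipid into lamellar bodies for surfactant. Its promoter and that of Abcd3 are shown as those of the 2 highest members. They are the 150 bases before the most upstream RefSeq start on GRCm38.p6, chr17:24351873-24352022 on the plus strand for Abca3 and chr3:121815303-121815452 on the minus strand for Abcd3, with GGGCGG in capitals.
Abca3: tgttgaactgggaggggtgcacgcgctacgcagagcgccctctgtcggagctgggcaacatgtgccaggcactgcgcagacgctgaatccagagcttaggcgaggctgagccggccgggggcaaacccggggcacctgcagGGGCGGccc
Abcd3: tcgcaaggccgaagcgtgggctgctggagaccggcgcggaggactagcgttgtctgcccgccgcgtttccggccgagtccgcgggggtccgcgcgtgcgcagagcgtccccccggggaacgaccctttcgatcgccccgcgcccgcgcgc
The Abca3 window had 69.3% GC and 1 GC box, beginning at position -9 from the start, and the Abcd3 window had 76.0% GC and none of the 5 motifs. With the highest value taken where a gene has several starts, the median GC content of the 250 bases before the start was 65.0% for the 8 members above 1 FPKM that the table holds and 52.4% for the 19 below, against 52.8% over all symbols in the table. GGGCGG was in 5 of those 8 and in 6 of those 19, beside 35.4% of all symbols in the table. A link of this motif with level was not tested.

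Abca8b, Abca8a, Abca9, Abca6 and Abca5 lie side by side on mm9 chromosome 11, from 109794720 to 110199030. Their levels were uneven. Abca9 was at 1.46 ± 0.309 FPKM and Abca5, a lysosomal protein, at 1.41 ± 0.601 FPKM, whereas Abca8a was at 0.247 ± 0.135 FPKM, Abca8b at 0.104 ± 0.0833 FPKM and Abca6, which lies between Abca9 and Abca5, at 0.0710 ± 0.0133 FPKM. Abca6 rested on about 2 fragments in each tumour. Abca9 and Abca8a were highest in tumour 3, at 1.82 and 0.386 FPKM, as were the adipocyte markers Adipoq, Fabp4, Plin1, Lep and Cidec. Of these 2 of 5 were above 1 FPKM and none was at 0, with a summed level of 60.3, 44.7 and 195 FPKM in tumours 1, 2 and 3. With trends removed the sums were 46.4, 45.1 and 252 FPKM, and the part of these markers in the levels was not tested. A highest level in tumour 3 was common. As deposited, 10 of 19 members that averaged 1 FPKM or more, Abca9 among them, had it, as did the macrophage marker sum. Of the other genes side by side with Abca9 here, Abca8b and Abca5 were highest in tumour 1 as deposited and Abca6 in tumour 2. The lipid transporters of photoreceptors and skin, Abca4 and Abca12, were at 0.0362 ± 0.0385 and 0.0310 ± 0.0182 FPKM, and Abca13 was at 0.00749 ± 0.00807 FPKM. Abca16 was listed at 0.0289 FPKM in tumour 2 and at 0 in the others, and it lies beside Abca14 and Abca15 on mm9 chromosome 7.

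Of the 14 drug, conjugate and bile salt pumps, 3 were above 1 FPKM, 2 were not separated from it, 8 were below and Abcc6 was listed at 0. Abcg2, the breast cancer resistance protein (mm9 chromosome 6, 58546666 to 58642445), led with 13.5, 13.9 and 8.67 FPKM in tumours 1, 2 and 3, from 907, 899 and 626 fragments (limma adjusted p = 1.5e-06). Tumours 1 and 2 were nearly equal and tumour 3 lower as deposited. With trends removed the values were 7.49, 15.6 and 13.6 FPKM, and tumour 1 was the lowest. Abcg2 has 39.2% GC, among the lowest of the members, so its order between tumours depends on this correction. Abcg3, a rodent relative of Abcg2, was at 0.563 ± 0.192 FPKM and below 1 FPKM (limma adjusted p = 0.037), a call lost with trends removed and without tumour 1 or 2 (adjusted p = 0.073, 0.076 and 0.27).

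Abcc1, which exports glutathione conjugates and leukotriene C4, was the highest of the C class at 4.91 ± 1.52 FPKM, with 3.17, 6.00 and 5.56 FPKM in tumours 1, 2 and 3, and 3.69, 5.77 and 5.01 FPKM with trends removed. Abcc3, a basolateral pump of conjugated metabolites, had 1.27, 4.08 and 2.76 FPKM. Its call above 1 FPKM (limma adjusted p = 0.0087) was lost without tumour 2 (adjusted p = 0.15). Abcc5 and Abcc4, exporters of cyclic nucleotides, were not separated from 1 FPKM. Abcc5 had 0.460, 1.43 and 1.31 FPKM and Abcc4 0.705, 1.46 and 0.878 FPKM, so both were lowest in tumour 1 and highest in tumour 2. With trends removed the order was the same, at 0.533, 1.36 and 1.20 FPKM for Abcc5 and 0.787, 1.39 and 0.833 FPKM for Abcc4. Abcc10, a broad drug pump, was at 0.584 ± 0.0815 FPKM, below 1 FPKM at an adjusted p of 0.043 by limma and not without any of the 3 tumours in turn (adjusted p = 0.069 to 0.21).

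P-glycoprotein, the best known multidrug pump, has a pair of genes in the mouse. Abcb1a had 0.235, 0.311 and 0.193 FPKM and Abcb1b 0.377, 0.435 and 0.321 FPKM in tumours 1, 2 and 3, from 28 to 50 fragments. Both were below 1 FPKM, with limma adjusted p = 0.00044 for Abcb1a and 0.0032 for Abcb1b. Abcb1b was the higher in every tumour, but the deposited intervals of the pair overlapped in each. Of the 50-base words in their longest transcripts, 15.5% of those of Abcb1a occur in Abcb1b and 18.0% of those of Abcb1b in Abcb1a. Fragments from these stretches cannot be placed by sequence, so the split between the genes is uncertain.

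The promoter of Abcb1b is shown as that of the higher gene of this pair. It is the 150 bases before the start on GRCm38.p6, plus strand, at chr5:8797997-8798146, with GGGCGG and CCAAT or its complement in capitals.
Abcb1b: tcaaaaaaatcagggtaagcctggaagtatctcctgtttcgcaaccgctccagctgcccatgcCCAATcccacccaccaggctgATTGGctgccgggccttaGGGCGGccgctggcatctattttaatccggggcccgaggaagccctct
The window had 58.7% GC, a GGGCGG beginning at position -48 and CCAAT on each strand, beginning at -87 and -66.

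The remaining pumps were near the limit of detection. Abcc2, the pump of conjugates into bile, had 2 fragments in each of tumours 2 and 3, at 0.0136 and 0.0122 FPKM, and was listed at 0 in tumour 1. Abcb11, the bile salt export pump, and Abcb5, known from melanoma, were listed above 0 in tumour 2 alone, at 0.00752 and 0.0192 FPKM. Abcc12 was listed at 0.0574 FPKM in tumour 2, from 7 fragments, and at 0 in the others. The hepatocyte markers Alb, Apoa1 and Ttr had a summed level of 1.69, 0.256 and 0.532 FPKM in tumours 1, 2 and 3. Alb, at 1.31 FPKM in tumour 1 and 0.211 and 0.379 FPKM in tumours 2 and 3, was not separated from 1 FPKM, and Apoa1 and Ttr were below.

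In the list of glutathione and xenobiotic genes 9 of 12 were above 1 FPKM and 3 below, beside 54.2% and 32.5% of all symbols. Nfe2l2, the NRF2 gene, which is known to drive several C-class pumps, was at 24.2 ± 6.28 FPKM, and the glutathione transferase gene Gsta4 at 16.7 ± 0.493 FPKM. Nr1i3, one of the xenobiotic-sensing nuclear receptors of liver, was the lowest at 0.0191 ± 0.0167 FPKM.

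Of the 5 peroxisomal and lysosomal genes 2 were above 1 FPKM, Abcd3 at the higher level, Abcd4 was not separated from it, and Abcd2 and Abcb9 were below. Abcd3 (mm9 chromosome 3, 121461828 to 121518133) had 31.6, 19.6 and 14.2 FPKM in tumours 1, 2 and 3, and 27.5, 18.96 and 16.8 FPKM with trends removed. Tumour 1 was the highest and tumour 3 the lowest in both. Abcd2, a peroxisomal fatty acid importer known from adipose tissue and brain, had 0.325, 0.172 and 0.344 FPKM in tumours 1, 2 and 3. Abcd4, which acts in the export of cobalamin from lysosomes, had 0.921, 0.881 and 0.900 FPKM from 63, 58 and 66 fragments, and 1.02, 0.827 and 0.866 FPKM with trends removed. Abcb9, a lysosomal peptide transporter, was at 0.476 ± 0.185 FPKM, and without tumour 2 it was not separated from 1 FPKM (limma adjusted p = 0.15).

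Among 10 peroxisomal partner genes 9 were above 1 FPKM and Slc27a2, an acyl-CoA synthetase of liver and kidney, was listed at 0. Of all symbols listed above 0, 54.2% were above 1 FPKM. The β-oxidation gene Hsd17b4 led at 31.2 ± 6.12 FPKM and the sterol carrier gene Scp2 followed at 28.2 ± 5.48 FPKM. Pex19, the import receptor for peroxisomal membrane proteins, which is known to bind the D-class transporters, was at 13.3 ± 3.44 FPKM. All 5 cobalamin genes were above 1 FPKM, led by Mmadhc at 27.5 ± 4.67 FPKM and the methylmalonyl-CoA mutase gene Mut at 5.22 ± 2.76 FPKM, with the methionine synthase gene Mtr lowest at 1.68 ± 0.347 FPKM. Lmbrd1, the lysosomal partner of Abcd4, had 3.95, 4.74 and 3.63 FPKM.

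The mitochondrial genes were the only role in which every member was above 1 FPKM, with 4 of 4. Of all symbols listed above 0, 54.2% were above it, and 4 genes are too few to set against that share. Abcb6, linked to porphyrin transport and also found in other membranes, was at 4.44 ± 1.29 FPKM. Abcb10, needed for haem synthesis in red cell precursors, had 1.93, 2.54 and 4.08 FPKM, and 2.50, 2.35 and 3.41 FPKM with trends removed. Abcb8 was at 2.30 ± 0.777 FPKM, and without tumour 2 it was not separated from 1 FPKM (limma adjusted p = 0.10).

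All 12 genes of the haem and iron-sulphur list were above 1 FPKM, beside 54.2% of all symbols listed above 0. The assembly genes Iscu and Glrx5 led at 35.9 ± 9.98 and 30.5 ± 13.8 FPKM. Slc25a37, the mitochondrial iron importer that Abcb10 is known to stabilise in red cell precursors, was the lowest at 2.35 ± 0.419 FPKM. Of the erythroid markers Alas2, Klf1 and Slc4a1, Alas2 was above 1 FPKM at 2.74 ± 0.517 FPKM, and Klf1 and Slc4a1 were below at 0.0412 ± 0.0262 and 0.122 ± 0.0407 FPKM.

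Of the sulphonylurea receptors, the regulatory subunits of ATP-sensitive potassium channels, Abcc9 was above 1 FPKM and Abcc8 below. Abcc9, the form of vascular smooth muscle and pericytes (mm9 chromosome 6, 142536382 to 142650794), had 2.64, 3.40 and 1.45 FPKM in tumours 1, 2 and 3, and 2.37, 3.42 and 1.62 FPKM with trends removed. Its call above 1 FPKM (limma adjusted p = 0.0058) was lost without tumour 2 (adjusted p = 0.13). Abcc8, the form of pancreatic beta cells, rested on 1 fragment in tumour 3. Of the channel pores, Kcnj8, the vascular partner of Abcc9, had 0.599, 2.01 and 0.926 FPKM, and Kcnj11, the beta cell partner of Abcc8, was listed at 0 throughout. Both Abcc9 and Kcnj8 were highest in tumour 2. The mural cell markers Rgs5, Pdgfrb, Cspg4 and Kcnj8, of which 2 of 4 were above 1 FPKM and none was at 0, had a summed level of 10.6, 12.6 and 8.91 FPKM as deposited and 8.90, 12.4 and 9.48 FPKM with trends removed. None of the 4 markers alone had the order of Abcc9 over the tumours as deposited, and Kcnj8 is also the pore partner named here. With trends removed Rgs5 and Kcnj8 had that order, and Pdgfrb and Cspg4 did not. Rgs5 was then at 4.99, 5.69 and 4.95 FPKM and Kcnj8 at 0.822, 1.83 and 0.740 FPKM in tumours 1, 2 and 3. The part of these markers in the Abcc9 level was not tested.

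The tumours were then compared gene by gene with Cochran's Q test on the deposited standard errors. A gene was called different with a Benjamini-Hochberg adjusted p under 0.05 and a ratio of the highest to the lowest tumour of at least 2. With 1 library per tumour the test compares these libraries by counting error and not conditions. Of the 46 members 19 averaged 1 FPKM or more, as the test required, and 11 of them were called, beside 32.1% of all 11193 genes tested. All 19 had an adjusted p under 0.05 at any ratio, as did 90.5% of all genes. The median ratio was 2.04 over the members and 1.75 over all genes tested. With GC and length trends removed 5 of 19 members were called, beside 16.9% of all genes. Then 16 of 19 had an adjusted p under 0.05 at any ratio, beside 77.4% of all genes, and the median ratios were 1.56 over the members and 1.42 over all genes.

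Abcc3, Abcc5 and Abcc9 were called both as deposited and with trends removed. Abcc3 had a ratio of 3.20 (Q test adjusted p = 5.5e-50) and 2.35 with trends removed, where its values were 1.63, 3.81 and 2.32 FPKM in tumours 1, 2 and 3. Abcc5 had ratios of 3.11 and 2.55, and Abcc9 of 2.35 and 2.11. Each was highest in tumour 2 in both forms. For Abcc5 tumours 2 and 3 were close, with a ratio of 1.09 as deposited without tumour 1. Abcc5 rested on few fragments, 32, 48 and 55 in tumours 1, 2 and 3, and these were highest in tumour 3, unlike its FPKM. From tumour 1 to tumour 2 its FPKM rose from 0.460 to 1.43, a larger rise than that of its fragments. Abcc3 and Abcc5 were lowest in tumour 1, and Abcc9 in tumour 3.

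Abcd3, Abca3, Abcg1, Abcb10, Abcb8 and Abcc4 passed as deposited, with ratios from 2.02 for Abca3 to 2.37 for Abcg1. With trends removed their ratios were under 2, between 1.18 for Abcb8 and 1.77 for Abcc4. For Abca5 the direction turned. It was highest in tumour 1 as deposited, at 2.06, 1.32 and 0.864 FPKM, and highest in tumour 2 with trends removed, at 1.15, 1.53 and 1.32 FPKM. Abcg2 and Abca9 passed only with trends removed, with ratios of 2.09 and 2.28, and Abca9 was then at 1.01, 1.32 and 2.29 FPKM in tumours 1, 2 and 3.

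**Figure D3:**
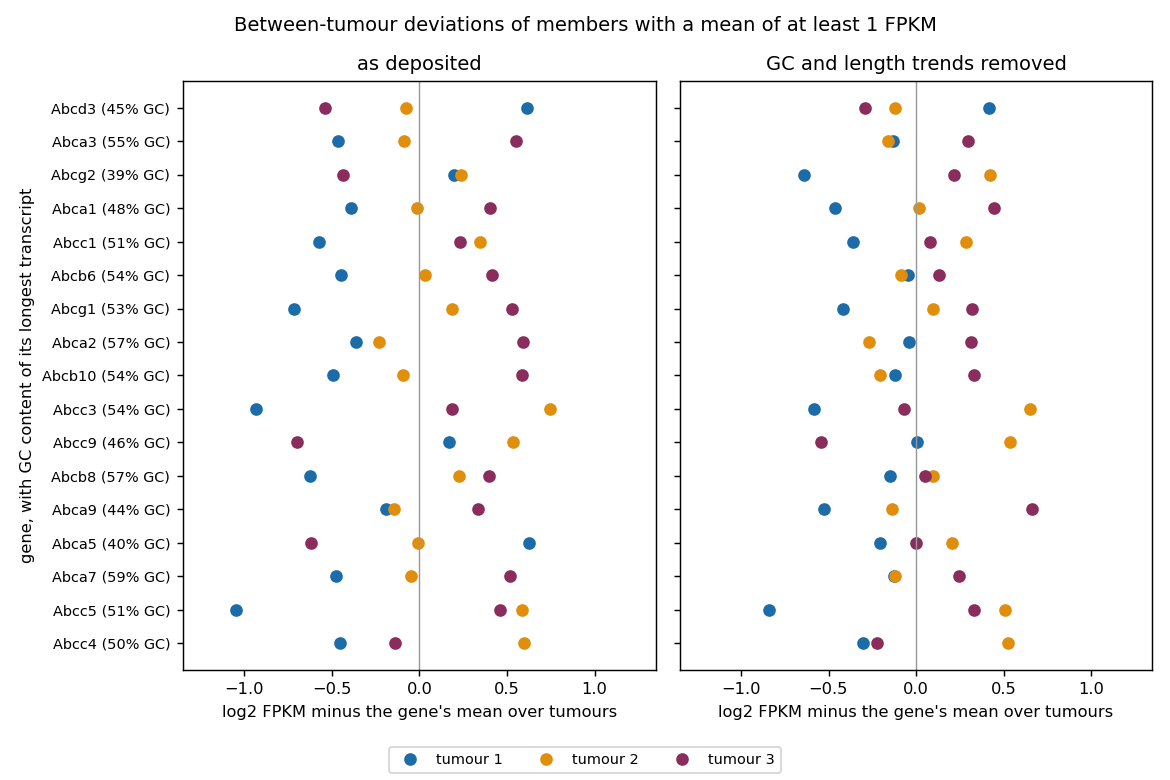
Each point is the log2 FPKM of a tumour minus the mean of that gene over the tumours, for 17 members that averaged 1 FPKM or more, as deposited on the left and with GC and length trends removed on the right; GC content of the longest transcript is beside each name. Abcd3, Abcb8 and Abcb10 draw closer to the centre with trends removed, whereas Abcc3, Abcc5 and Abcc9 keep ratios over 2.

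The differences of the members between tumours followed their base composition. Across the 19 tested members, GC content and the log2 ratio of tumour 3 to tumour 1 had a Pearson r of 0.83 and a Spearman rho of 0.71, given as a description of genes that share the same libraries. With trends removed Pearson's r was 0.08, as the correction is built to give. Abcd3 and Abca5, highest in tumour 1, had 44.5 and 39.8% GC, and the 10 members highest in tumour 3 had a median of 54.3%. The number of members called different was 1 without tumour 1, 8 without tumour 2 and 3 without tumour 3. Shares over all genes tested are not given for these 3 counts, so they show nothing particular to the members. The ratio of a gene over fewer tumours cannot exceed its ratio over all 3.

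**Figure D4:**
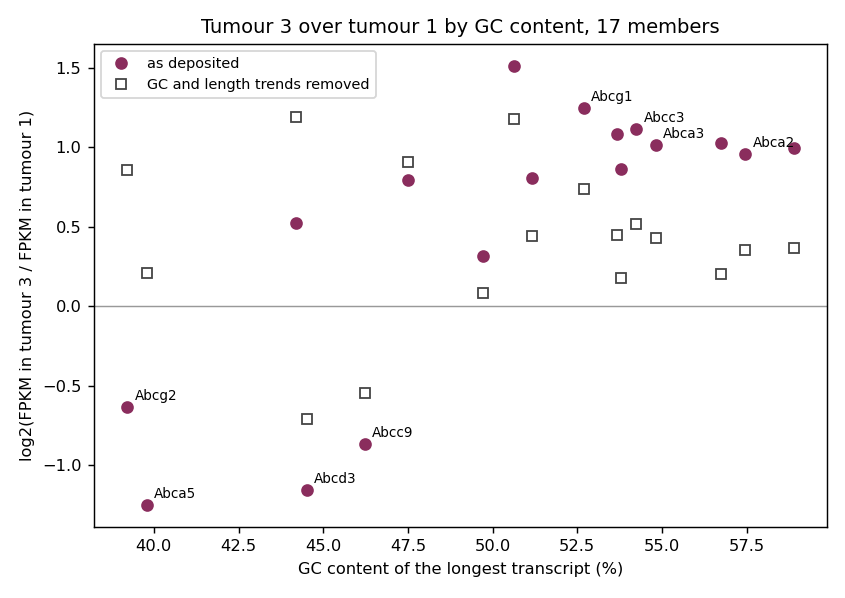
The log2 ratio of FPKM in tumour 3 to FPKM in tumour 1 is plotted against the GC content of the longest transcript for 17 members, as deposited (filled) and with GC and length trends removed (open). Filled points tend to rise with GC content, with -1.25 for Abca5 at 39.8% GC and 1.02 for Abca3 at 54.8% GC, but not steadily. Abcg2 at 39.2% GC lies at -0.64, Abca9 at 44.2% GC at 0.52 and Abcc5, the highest, at 1.51 with 50.6% GC. Open points show no such slope.

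Pairs of members with related roles were set side by side within each tumour, as differences of log2(FPKM + 0.1), first gene minus second. There were 14 pairs, of which 11 are given here, and with 3 tumours the exact two-sided sign-flip permutation test cannot go below p = 0.25, so no pair could pass a threshold of 0.05. Pairs with the same sign in every tumour had p = 0.25 by that exact test and 0.318 after Benjamini-Hochberg adjustment over 14 pairs. Abcg2 exceeded Abcb1a by 5.11 ± 0.22 log2 units (SD, n = 3) and Abcc1 minus Abcg2 was -1.29 ± 0.72. Abcg2 was thus above Abcb1a and above Abcc1 in 3 of 3 tumours. Abca1 exceeded Abcg1 by 1.19 ± 0.27 and Abca7 by 2.93 ± 0.07. With trends removed these differences were 1.20 ± 0.11 and 2.94 ± 0.30, so which varied less between tumours turned. Abcb1b exceeded Abcb1a by 0.47 ± 0.08 and Abca8a exceeded Abca8b by 0.77 ± 0.87. With a constant of 1 in place of 0.1 these were 0.15 and 0.17, and without tumour 3 Abca8a exceeded Abca8b by 0.26.

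Abcc4 minus Abcc5 was 0.01 ± 0.53, of mixed sign. Where the second gene is near 0 the size also depends on the added constant: Abcc1 minus Abcc2 was 5.48 ± 0.39 and Abcc9 minus Abcc8 4.59 ± 0.66, but 2.52 and 1.76 with a constant of 1. Abcb11 minus Abcb4 was -0.60 ± 0.37 and Abcg8 minus Abcg5 was -0.03 ± 0.05, both at a handful of fragments.

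**Figure D5:**
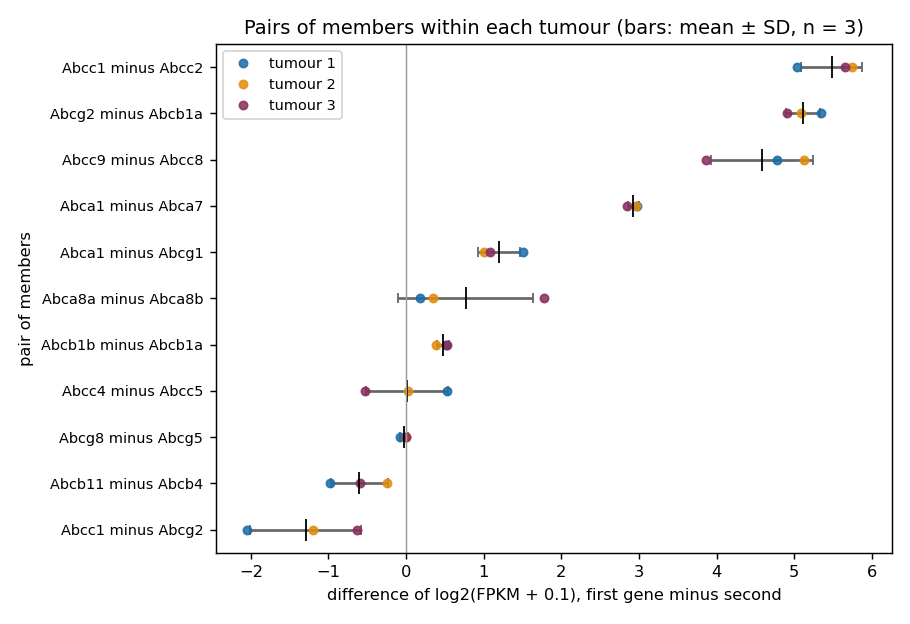
Points are the differences of log2(FPKM + 0.1) between the first and the second gene of each pair in tumours 1, 2 and 3, and bars show the mean ± SD (n = 3). Abcg2 lies 5.11 units above Abcb1a with little spread, while Abcc4 minus Abcc5 lies on both sides of 0.

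ABC genes outside these subfamilies or under other names were also looked at. Of 7, 6 were above 1 FPKM, beside 54.2% of all symbols listed above 0. Abcf2, a cytosolic ABC protein with no membrane domain, led at 30.7 ± 9.32 FPKM, followed by Abcf1, a translation factor of the same class, at 14.9 ± 1.76 FPKM. Cftr, the chloride channel of the C class, was listed at 0.0289 FPKM in tumour 2 and at 0 in the others. The median of the 7 means was 13.0 FPKM, beside 0.447 FPKM over all 46 members.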

How the data were processed

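Total RNA was sequenced from 3 tumours of 1 line, numbered in accession order, because the titles give no plain replicate number. Per the labels' protocols, ribosomal RNA was depleted and directional libraries were made from 50 ng by random priming. The authors deposited FPKM per gene, an interval and a status, per the file headers. TopHat, Cufflinks and mm9 are named in the submitters' processing notes, without roles. Their versions, the annotation and the use of strand are not stated in those notes, and overlapping genes are therefore uncertain. FPKM depends on the library total and on base composition effects of priming and amplification. The series states 3 different mice, with 1 library each, so p-values of the level test rest on the spread between animals and between libraries together. Limma also moderates that spread with a trend over all genes.

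Rows of 221 repeated symbols were added, and 182 symbols whose status was not OK were left out. The half-width of an interval was taken as 2 standard errors, and the squared ratio of FPKM to its error as implied fragments, within 0.02 of a whole number for 69.3% to 71.1% of rows under 60 fragments; counts were not tested. The level test was limma (3.58.1, R 4.3.3), two-sided, with an intercept, a mean-variance trend and robust moderation, on the log2 of FPKM + 0.1 over 1 + 0.1. A fold on this scale understates low genes. Differences between tumours used Cochran's Q with 2 degrees of freedom. Both tests were also run on simulated data. The counts simulated for the Q test held counting error only, with no spread between animals or libraries and no GC trend. That run therefore cannot show how the Q test behaves on these tumours. GC content and length came from the longest GENCODE M21 transcript by gene name or synonym (98.4% of symbols), never for coordinates. Trends were removed by lowess (span 0.3) fitted on 10856 genes, on the assumption that biology does not follow GC. Positions of genes are from the files, on mm9 and counted from 1. Promoters are from RefSeq on GRCm38.p6, matched by symbol for 34 of 46 members, and only the 250 bases before each start were used.

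Members, roles, pairs and lists were chosen with earlier results of these data known. Some results are not reported here. All other members were described. Of each partner list the 2 highest and the lowest genes and direct partners of a member were named; Nr1h2, Nr1h3 and Apoa1 were added after their values were seen.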

Additional observations from a re-analysis of the deposited data

How the results depend on the processing

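The count of members above 1 FPKM stayed between 14 and 21 under other pseudocounts, filters and scalings and was 11 to 14 with a tumour left out. The count below 1 FPKM was 9 when only symbols with a mean of at least 0.1 FPKM were fitted, which removes the lowest members, and 15 with an FPKM total of 1000000, and 16 to 21 with a tumour left out. The count of members different between tumours, 11, was 7 with median-of-ratios scaling, 5 with GC and length trends removed, 18 with a ratio of at least 1.5 and 1 to 8 with a tumour left out. Apart from the shares over all symbols printed in the Results, none are given beside these counts. The counts without such a share show nothing particular to the members. With an FPKM total of 1000000 the log2 level changed sign for Abca17 (0.20), Abcb1b (0.13), Abcb9 (0.39), Abcc10 (0.72), Abcc4 (1.42), Abcc5 (1.40), Abcd4 (1.32) and Abcg3 (0.63). It also changed sign for Abcc5 with pseudocount 1 (0.012), and with a tumour left out it ran from -0.31 to 0.42 for Abcc5, -0.31 to 0.17 for Abcc4 and -0.050 to 0.41 for Abca7, none of them separated from 1 FPKM. The ratio of Abca5 with trends removed, in the other direction, was 1.33. Abcc4 minus Abcc5 was -0.019 with pseudocount 1 and -0.25 to 0.28 with a tumour left out. The causes were not tested. In all, 318 of 348 recomputed levels, 90 of 132 differences and 63 of 66 pair values kept their direction and side. No paired analysis was possible because there is a single group. Depth limits the 17 members with under 20 fragments in every tumour.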
